A study of Mus musculus with 16 samples.

Results

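The genes described here are 10 that build the folds of the mitochondrial inner membrane or set how mitochondria join and divide. They were taken by symbol from the deposited table of mouse liver RNA sequencing, where all 10 were found among 30463 genes, and all 10 passed the authors' filter on low counts, as did 16288 genes in all. Of the 10, Immt, Chchd3, Chchd6 and Apool encode subunits of the MICOS complex, and Samm50 encodes its partner in the outer membrane. Opa1, Mfn1 and Mfn2 act in fusion, and Dnm1l and Fis1 act in fission. The study sampled whole liver of 14-week-old wild-type C57BL/6N mice in 16 samples, and the labels do not say whether each sample is 1 animal. At 2 weeks of age the mice had been given vehicle or diethylnitrosamine (DEN), a liver carcinogen that hepatocytes must activate, and at 6 weeks they had stayed on a control diet or moved to a 60% high fat diet. This makes 4 groups of 4 samples, which are vehicle with control diet, DEN with control diet, vehicle with high fat diet and DEN with high fat diet. By its title, the series concerns how untransformed cells respond to fat through their glucose metabolism.

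MICOS sits at the crista junctions, the narrow necks that connect the folds of the inner membrane, the cristae, with the rest of that membrane. It touches the outer membrane through the sorting and assembly protein SAMM50, and without the complex the cristae detach and stack. Mitofusins join outer membranes and OPA1 joins inner membranes and narrows crista junctions, while the dynamin DRP1, the product of Dnm1l, is recruited from the cytosol and constricts mitochondria until they divide. In hepatocytes, which are rich in mitochondria, these shapes are known to shift with feeding state and with lipid load.

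All values come from a single contrast that the authors' deposited table holds. Neither its sides nor the libraries that entered it are named there, so the text speaks of a positive side, where a log2 fold change above 0 means more RNA, and of a negative side. The per-library columns of that table carry codes that match no sample label, so levels by diet or by DEN, the spread between mice and the depth of each library are not given, and each value carries the authors' standard error (SE) instead. As a check of the liver label, 6 hepatocyte markers had mean normalized counts of at least 33089 in the authors' deposited table, while 3 adipocyte and 2 skeletal muscle markers had less than 1 each. A gene is called where its adjusted p is below 0.05 in the authors' deposited table.

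The 2 largest differences among the 10 genes were those of Chchd6 and Apool, which encode subunits of MICOS, the complex that shapes the cristae. Genes of other MICOS subunits, namely Immt, Chchd3, Apoo, Micos10 and Micos13, were not called. Chchd6 was 2.94-fold higher and Apool 1.31-fold higher on the positive side, and the fission gene Fis1 was 1.18-fold higher. The other 7, including the scaffold gene Immt, all 3 fusion genes and the fission dynamin gene Dnm1l, were not called, and none of their intervals reached a change of 1.5-fold. So 3 of 10 genes (30%) were called, all positive and 0 negative, beside 6.57% of all tested genes called in either direction, 3.67% positive and 2.90% negative in the authors' deposited table. The median log2 fold change of the 10 was 0.0016 beside -0.0044 over all tested genes, with 5 positive and 5 negative in sign. Because whole liver was sampled, fewer cells of a type and less RNA per cell cannot be told apart.

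**Figure D1:**
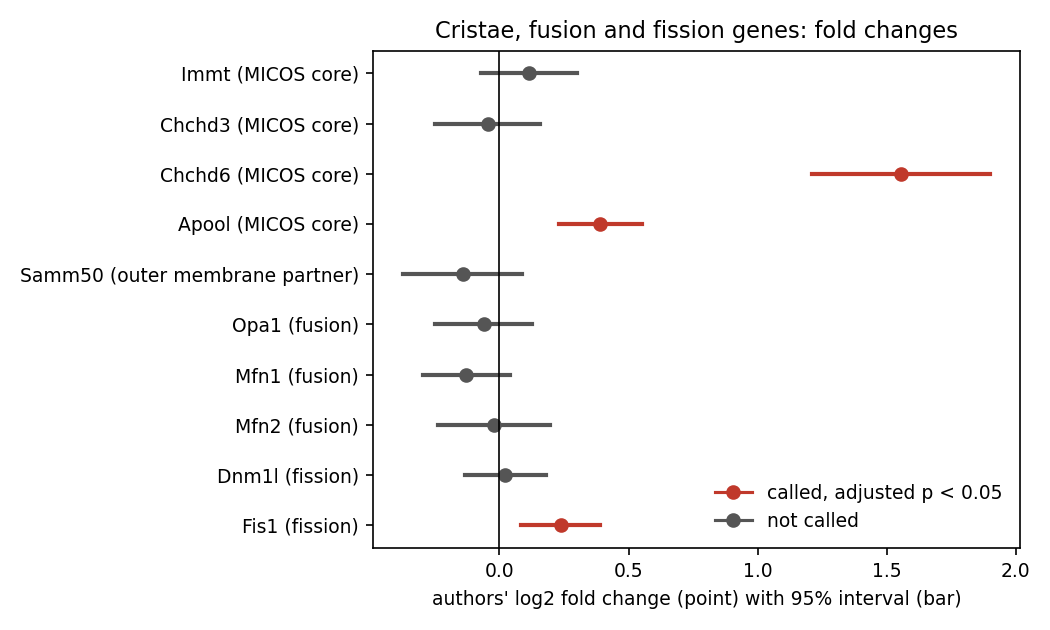
Authors' log2 fold change (horizontal axis) of the 10 genes, ordered by role, with bars for the 95% interval made from the authors' SE. The label MICOS core stands for all 4 MICOS genes among the 10. Chchd6 stands far to the right at 1.56, Apool and Fis1 lie to the right of 0 with intervals that do not touch it, and the 7 grey genes have intervals that span 0.

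Chchd6 encodes MIC25, a MICOS subunit of the family with a coiled-coil-helix domain, closely related to MIC19, the product of Chchd3. Its mean normalized count was 68.8 in the authors' deposited table, the lowest of the 10. Its log2 fold change was 1.56 ± 0.18 (SE), with a 95% interval from 1.21 to 1.90 and an adjusted p of 1.76e-15 in the authors' deposited table. As a fold this is 2.94, with bounds of 2.32 and 3.74. By its p-value the gene ranked 8 among the 16288 tested genes. An SE of this size was not unusual for its level, since the 1617 tested genes with a mean normalized count within 1.5-fold of it had a median SE of 0.20. At its own SE a log2 change of about 0.52 was the least that would have been called.

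Its relative Chchd3 was not called. Chchd3 encodes MIC19, which binds the scaffold protein MIC60 and links it with the outer membrane. Its mean normalized count was 1962 and its log2 fold change -0.04 ± 0.10 (SE) with an adjusted p of 0.876 in the authors' deposited table. The 95% interval ran from -0.25 to 0.16, that of Chchd6 lay wholly above it, and the estimates lay 1.60 apart on the log2 scale. A test of that gap needs the covariance of both estimates, which takes values per library, and it was not made. The coding sequences of the pair are 60.8% identical over 656 aligned bases, with no shared stretch longer than 13 bases, in GENCODE M21. Both genes lie on the minus strand of chromosome 6 in GRCm38, Chchd6 (ENSMUSG00000030086) from 89383146 to 89595652 and Chchd3 (ENSMUSG00000053768) from 32790976 to 33060260.

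The stretches of 250 bases before the RefSeq start of both genes (GRCm38.p6, minus strand, 5′ to 3′) are shown because this pair of relatives had the widest gap among the MICOS genes and shares a promoter motif. Capitals mark the ZNF143 core CTACAANTC, part of a motif bound by the factor ZNF143 that is common at promoters used in many tissues. The first lies at chr6:89595653-89595902 and the second at chr6:33060261-33060510.
Chchd6: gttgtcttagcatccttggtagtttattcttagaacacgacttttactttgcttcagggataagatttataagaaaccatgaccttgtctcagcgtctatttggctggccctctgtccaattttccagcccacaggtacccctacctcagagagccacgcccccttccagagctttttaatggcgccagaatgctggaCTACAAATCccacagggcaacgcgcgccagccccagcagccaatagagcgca
Chchd3: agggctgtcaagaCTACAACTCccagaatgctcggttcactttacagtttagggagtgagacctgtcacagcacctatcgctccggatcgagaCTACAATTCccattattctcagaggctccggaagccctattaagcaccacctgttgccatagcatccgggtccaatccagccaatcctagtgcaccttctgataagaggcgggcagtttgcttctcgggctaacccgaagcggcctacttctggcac
The Chchd6 window holds 1 match, 52 to 44 bases before the start, and the Chchd3 window holds 2, at 237 to 229 and 157 to 149 bases. Both carry the match in the strand sense of the gene. A match is a description of letters, and it stands in front of a called and an uncalled gene alike.

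The genes next to Chchd6 were not called. Plxna1, 20.5 kb away, had a log2 fold change of 0.00 ± 0.14 (SE, adjusted p = 0.9997), and Txnrd3, 48.3 kb away on the other side, one of -0.20 ± 0.18 (SE) with an adjusted p of 0.622 in the authors' deposited table. An unconfirmed gene model on the same strand, Gm43903, overlaps Chchd6 in GENCODE M21 and was not analysed here. Around all 10 genes, 0 of the 20 nearest tested genes were called, beside 6.57% of all tested genes. Of the 20, 1 had an unadjusted p below 0.05, beside 3102 of all 16288 tested genes (19.0%). Transcripts of 8 other annotated genes overlap 6 of the 10 loci and the highest mean normalized count among those with a value was 5.57. The neighbour with the unadjusted p below 0.05 was Yars2, a mitochondrial tyrosyl-tRNA synthetase gene 2.59 kb from Dnm1l, at 0.23 ± 0.078 (log2 and SE) with an adjusted p of 0.0510 in the authors' deposited table.

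Apool encodes MIC27, an apolipoprotein O-like MICOS subunit that binds the mitochondrial lipid cardiolipin. Its mean normalized count was 413.3 and its log2 fold change 0.39 ± 0.082 (SE) with an adjusted p of 0.000162 in the authors' deposited table. The 95% interval ran from 0.23 to 0.55, or from 1.17-fold to 1.47-fold. Apool was called in 6 of 7 alternatives, and the exception, in which every statistic was divided by the spread of all statistics, gave an adjusted p of 0.0830. Apoo, which encodes the related subunit MIC26, was at 0.014 ± 0.13 (log2 and SE) with an adjusted p of 0.974 and a mean normalized count of 140.2 in the authors' deposited table. Its interval runs from -0.25 to 0.27 and overlaps that of Apool, and the difference between them was not tested. The coding sequences of this pair are 61.4% identical over 583 aligned bases, with no shared stretch longer than 11 bases. Apool (ENSMUSG00000025525) lies on chromosome X from 112311334 to 112372755, plus strand, with no other annotated gene on top of it.

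Immt encodes MIC60, the scaffold around which MICOS forms. Its mean normalized count of 2017 lay well above that of Chchd6, and its log2 fold change was 0.11 ± 0.095 (SE) with an adjusted p of 0.569 in the authors' deposited table. The 95% interval, from -0.073 to 0.30, reaches at most a 1.23-fold difference. Of Immt, Chchd3, Chchd6 and Apool, the 2 called genes had the lower counts and the 2 uncalled ones the higher. That order did not hold for all MICOS genes. Apoo was not called, and its mean normalized count of 140.2 lay below the 413.3 of Apool in the authors' deposited table. Immt (ENSMUSG00000052337) lies on chromosome 6 from 71831331 to 71877388, plus strand. Samm50 (ENSMUSG00000022437, chromosome 15 from 84192241 to 84217267, plus strand) had a mean normalized count of 1879 and a log2 fold change of -0.14 ± 0.12 (SE) with an adjusted p of 0.564 in the authors' deposited table. Its interval, from -0.37 to 0.089, was the widest of the uncalled genes and reached a 1.30-fold difference toward the negative side.

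**Figure D2:**
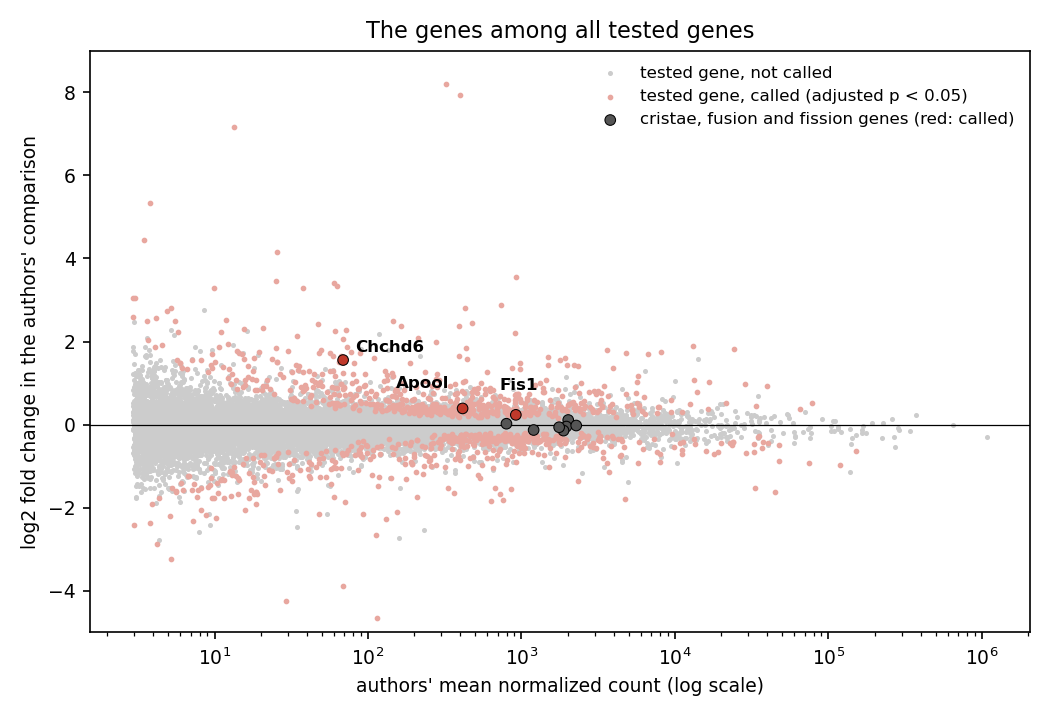
Authors' log2 fold change (vertical axis) against the authors' mean normalized count (horizontal axis, log scale) for 16288 tested genes, with the 10 genes as large points. Chchd6, at a mean normalized count of 68.8, lies well left of the other 9 and above the grey band, while the uncalled genes sit on the line of 0 between counts of 798 and 2274.

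None of the 3 fusion genes was called, none had an unadjusted p below 0.05, and all 3 were negative in sign. Opa1, the inner-membrane fusion dynamin, had a mean normalized count of 1759 and a log2 fold change of -0.061 ± 0.096 (SE) with an adjusted p of 0.804 in the authors' deposited table. Mfn1 was at -0.13 ± 0.086 (log2 and SE) with an adjusted p of 0.437 and a mean normalized count of 1200 in the authors' deposited table. Mfn2, which also tethers mitochondria to the endoplasmic reticulum, was at -0.020 ± 0.11 (log2 and SE) with an adjusted p of 0.952 and a mean normalized count of 2274 in the authors' deposited table. Their 95% intervals were -0.25 to 0.13, -0.30 to 0.040 and -0.24 to 0.20 in that order, so that each allows a change of less than 1.5-fold in either direction. The mitofusin coding sequences are 68.2% identical over 2192 aligned bases, and their longest shared stretch has 21 bases. Opa1 (ENSMUSG00000038084) lies on chromosome 16 from 29579334 to 29654884 on the plus strand, Mfn1 (ENSMUSG00000027668) on chromosome 3 from 32529465 to 32579239 on the plus strand, and Mfn2 (ENSMUSG00000029020) on chromosome 4 from 147873599 to 147904704 on the minus strand. Counts are per gene, and the 8 annotated transcripts of Opa1, whose protein forms are known to differ in how they are cleaved, were not told apart.

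Of the fission pair, 1 gene was called. Fis1, an outer-membrane protein that recruits partners of the fission machinery, had a mean normalized count of 918.7 and a log2 fold change of 0.24 ± 0.079 (SE) with an adjusted p of 0.0435 in the authors' deposited table. The 95% interval ran from 0.083 to 0.39, or from 1.06-fold to 1.31-fold, so the difference is small even at its upper bound. At that SE a log2 change of 0.23 was the least that would have been called, and the gene stood just past it. The call was lost in 4 of 7 alternatives, with an adjusted p of 0.0803 when every gene of the table entered the adjustment, 0.447 with the Benjamini-Yekutieli adjustment and 0.605 when every statistic was divided by the spread of all statistics. The fourth was a stricter threshold of 0.01. Dnm1l, the dynamin that constricts the membrane, had a mean normalized count of 798.1 and a log2 fold change of 0.023 ± 0.080 (SE) with an adjusted p of 0.919 in the authors' deposited table. Its interval, from -0.13 to 0.18, overlaps that of Fis1, and the difference between the pair was not tested. Fis1 (ENSMUSG00000019054) lies on chromosome 5 from 136953275 to 136966234 on the plus strand, and Dnm1l (ENSMUSG00000022789) on chromosome 16 from 16312230 to 16358959 on the minus strand. The nearest tested gene to Fis1, Cldn15, starts 0.382 kb past its end and was at -0.29 ± 0.50 (log2 and SE) with an adjusted p of 0.826 in the authors' deposited table.

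Levels of different genes were compared per kilobase of annotated exons. Chchd3 was highest with a mean normalized count of 675.5 per kilobase, followed by Fis1 with 536.0 and Mfn2 with 437.7 per kilobase. Samm50 had 286.6, Opa1 223.4, Mfn1 196.3, Immt 177.6, Dnm1l 153.4 and Apool 118.6 per kilobase. Chchd6 was lowest with 27.2 per kilobase, at percentile 44.0 of all tested genes, where Chchd3 was at percentile 93.7. On this scale Chchd3 was 24.8 times as abundant as Chchd6, and 20.6 times when the length was that of the transcript with the longest coding sequence. Mfn2 was 2.23 times as abundant as Mfn1, or 1.99 times with the other length. The spread of these levels over mice is not given here, so neighbours in this order were not tested against each other. With the other length, Chchd3, Fis1 and Chchd6 kept ranks 1, 2 and 10, and the other 7 changed places, Immt moving from rank 7 to rank 3.

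**Figure D3:**
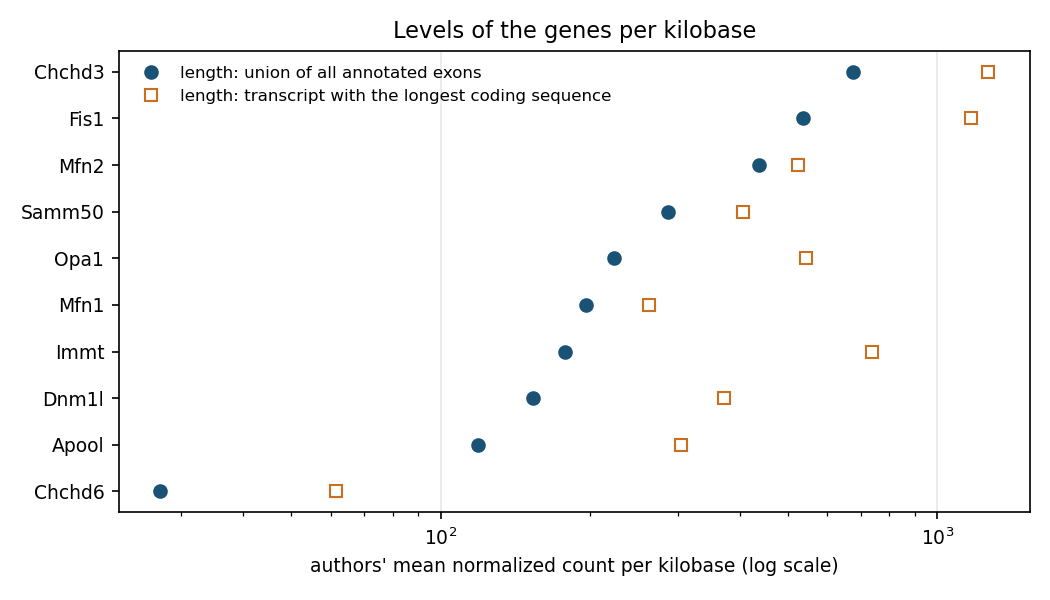
Authors' mean normalized count per kilobase (horizontal axis, log scale) for the 10 genes, with the length taken as all annotated exons (filled circles) or as the transcript with the longest coding sequence (open squares). Chchd3 is at the right end and Chchd6 at the left end with either length, and Immt shifts most between the symbols.

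Promoter letters were compared because 3 of the genes were called and 7 were not, and RefSeq gave a window for all 10. In the 250 bases before the RefSeq start, the ZNF143 core CTACAANTC stood in front of 3 of 10 genes (Chchd3, Chchd6 and Mfn2), beside 2.64% of the 10699 tested protein-coding genes with a window. The NRF1 core GCATGCGC, bound by a regulator of nuclear genes for mitochondria, stood in front of Opa1 alone, beside 4.29% of tested genes. The ETS core CCGGAAGT, which GABP and other factors bind, stood in front of Fis1 and Mfn1, beside 5.73% of tested genes. Both strands were searched. The estrogen-related receptor site TCAAGGTCA and AGGTCANAG, the start of a PPAR direct repeat, which can overlap that site, were in none of the 10 windows, beside 0.252% and 1.29% of tested genes. The CCAAT box, 5 letters long, stood in front of 9 of 10 genes, beside 36.4% of tested genes, Mfn2 being the one without it. None of the motif classes was carried by all 3 called genes except that box, which Chchd6, Apool and Fis1 share with 6 uncalled genes. The motif list was drawn up after the sequences had been read, so these counts carry no test.

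The windows of the other 2 called genes, and short stretches around the motifs of Opa1 and Mfn2, are given for comparison with the pair above (RefSeq, GRCm38.p6, strand of the gene, 5′ to 3′). Capitals mark the ETS core in Fis1 (chr5:136953025-136953274), the NRF1 core on both strands in Opa1 (chr16:29579260-29579299) and the ZNF143 core in Mfn2 (chr4:147904909-147904948), and the Apool window (chrX:112311102-112311351) has no capitals because no core was found in it.
Apool: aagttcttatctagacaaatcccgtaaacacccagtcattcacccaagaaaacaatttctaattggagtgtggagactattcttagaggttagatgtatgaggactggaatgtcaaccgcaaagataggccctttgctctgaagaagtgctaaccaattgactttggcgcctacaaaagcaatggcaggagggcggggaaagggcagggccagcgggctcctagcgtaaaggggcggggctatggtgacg
Fis1: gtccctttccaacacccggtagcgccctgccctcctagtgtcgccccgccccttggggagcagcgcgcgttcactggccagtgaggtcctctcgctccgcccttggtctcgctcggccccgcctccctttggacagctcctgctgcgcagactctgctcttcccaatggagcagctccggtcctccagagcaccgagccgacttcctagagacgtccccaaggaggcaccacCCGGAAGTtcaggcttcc
Opa1: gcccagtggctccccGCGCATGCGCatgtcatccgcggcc
Mfn2: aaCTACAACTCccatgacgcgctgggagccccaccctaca
The ETS core of Fis1 lies 18 to 11 bases before the start. In Opa1 the NRF1 core reads on both strands within 10 letters, 59 to 50 bases before the start.

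Around these genes, 95 others in 10 lists of the same functions were examined for the same contrast, and few were called. Of 93 with an adjusted p, 2 were called positive and 2 negative in the authors' deposited table, which is 4.30% beside the 6.57% of all tested genes. Of 10 further MICOS and outer-membrane bridge genes, among them Apoo, Micos10, Micos13 and Dnajc11, 0 were called and 0 had an unadjusted p below 0.05, and their log2 fold changes lay between -0.050 and 0.10. The one with the smallest p was Mtx1, an outer-membrane import gene, at 0.10 ± 0.083 (log2 and SE) with an adjusted p of 0.539 in the authors' deposited table. The estimates of Chchd6 and Apool lay above this range, but the interval of Apool overlaps those of Apoo, Mtx3 and Chchd10 among others, and no such difference was tested.

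Proteases and scaffolds that act on OPA1 or hold the inner membrane had a median log2 fold change of 0.19, with 9 of 10 positive in sign and 5 with an unadjusted p below 0.05. Over all tested genes 49.2% were positive in sign and 19.0% had an unadjusted p below 0.05. Only Spg7, which encodes the inner-membrane protease paraplegin, was called, at 0.37 ± 0.075 (log2 and SE) with an adjusted p of 8.5e-05 in the authors' deposited table. The other 4 with an unadjusted p below 0.05, named after their values were seen, were Letm1 at 0.24, Parl at 0.26, Stoml2 at 0.19 and Opa3 at 0.17 (log2), with adjusted p-values of 0.0636, 0.0741, 0.0901 and 0.210 in the authors' deposited table. Cardiolipin genes had 1 called in each direction among 10, and 2 (20%) had an unadjusted p below 0.05, beside 19.0% of all tested genes. Triap1, whose product helps carry phosphatidic acid toward cardiolipin synthesis, was at 0.38 ± 0.11 (log2 and SE) with an adjusted p of 0.0144, and Cds2, an enzyme that makes CDP-diacylglycerol in the endoplasmic reticulum, at -0.46 ± 0.15 (log2 and SE) with an adjusted p of 0.0431 in the authors' deposited table. Among 12 regulators of mitochondrial biogenesis, 3 (25%) had an unadjusted p below 0.05 and 1 (8.3%) was called. The shares over all tested genes were 19.0% and 6.57%. The called one was Ppargc1a, at -1.30 ± 0.22 (log2 and SE) with an adjusted p of 5.9e-07 in the authors' deposited table. It encodes the coactivator PGC-1 alpha, and its sign is opposite to that of Chchd6 and Apool. Ppargc1a was called in 7 of 7 alternatives, while the call of Spg7 was lost in 1 of 7, that of Triap1 in 3 and that of Cds2 in 4.

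**Figure D4:**
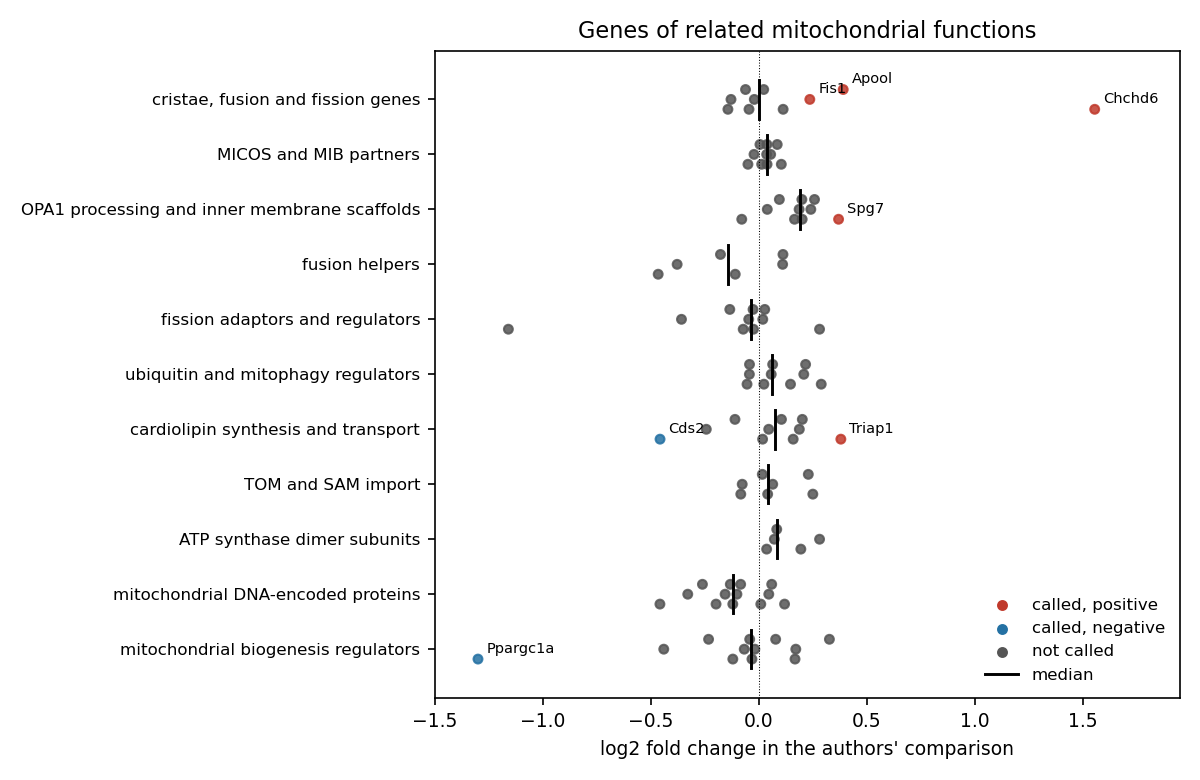
Authors' log2 fold change (horizontal axis) of the 10 genes and of the tested genes of 10 lists of related function, 1 point a gene, with a black bar at each median. Most points lie close to 0, and 7 called genes are named: Chchd6, Apool, Fis1, Spg7 and Triap1 on the right and Cds2 and Ppargc1a on the left.

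In the other 6 lists 0 genes were called, and their shares with an unadjusted p below 0.05 lay between 0% and 20%, beside 19.0% of all tested genes. Of 6 fusion helpers, 1 had an unadjusted p below 0.05, which was Miga1, a promoter of fusion on the outer membrane, at -0.47 ± 0.20 (log2 and SE) with an adjusted p of 0.153 in the authors' deposited table. Of 10 tested fission adaptors and regulators, 1 did, the dynamin gene Dnm2 at -0.13 ± 0.066 (log2 and SE) with an adjusted p of 0.242 in the authors' deposited table. Of 10 ubiquitin and mitophagy regulators 0 did, and the smallest p was that of Fkbp8, a mitophagy receptor gene, at 0.21 ± 0.12 (log2 and SE) with an adjusted p of 0.348 in the authors' deposited table. The import channel list had 1 of 7, the channel subunit gene Tomm7 at 0.25 ± 0.11 (log2 and SE) with an adjusted p of 0.193, and the ATP synthase dimer list, whose subunits bend the crista rim, 1 of 5, Atp5k at 0.28 ± 0.13 (log2 and SE) with an adjusted p of 0.221 in the authors' deposited table. Proteins encoded by mitochondrial DNA had a median of -0.12, and 1 of 13, mt-Nd5 at -0.46 ± 0.20 (log2 and SE) with an adjusted p of 0.153, had an unadjusted p below 0.05 in the authors' deposited table. Their mean normalized counts ran from 11.8 to 284987. These transcripts can resemble nuclear copies of mitochondrial DNA, which was not checked here, so their counts are uncertain.

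Some cell type markers were called in the same comparison, a look that was not planned. Of the 6 hepatocyte markers 3 were called negative and 0 positive, namely Tat at -1.53, Cps1 at -0.93 and Ahsg at -0.64 (log2). The other 3 were not called, with Alb at -0.29, Ttr at -0.12 and Apoa1 at 0.04 (log2), and the median of the 6 was -0.46. Of 4 Kupffer cell markers, with a summed mean normalized count of 4296, all were negative in sign. Of these, 1, Timd4, was called, at -0.76 ± 0.26 (log2 and SE) with an adjusted p of 0.0494 in the authors' deposited table. That call lay just below the threshold, and the alternatives were not applied to the markers. The 3 sinusoidal endothelial and 3 stellate markers were negative in sign, the 3 cholangiocyte markers were positive, and 0 of these 9 were called. Of 3 erythroid markers, 2 were positive in sign and 0 were called. Over all tested genes 6.57% were called, 2.90% negative, and 49.2% were positive in sign. The part of cell makeup in the differences of Chchd6, Apool and Fis1 was not tested.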

How the data were processed

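RNA sequencing of whole liver in 16 samples, 4 groups of 4 was analysed. Per the labels' protocols, frozen tissue was taken up in Trizol and mRNA libraries came from the KAPA stranded kit. HTSeq 0.11.1, HISAT2, Trimmomatic, FastQC and the build GRCm38 stand in the submitters' processing notes, without roles or a strand setting. Per the file headers, the deposited table holds for each gene a signal, its mean normalized count, then the log2 fold change and SE of the authors, their test score, and p-values before and after adjustment that the authors computed. Which groups were compared, and in which model, was not stated in the sources used here. A further 16 columns carry library codes that match no sample label and were not used, so the planned edgeR tests by diet and DEN were not run.

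The members and lists were chosen with earlier results of these data known. Checked on the values, the statistic is the log2 fold change over its SE and adjustment follows Benjamini-Hochberg over 16288 genes. Intervals are 95% normal intervals. Genes named are all 10 members, up to 3 called genes per list and direction, and otherwise the gene of the list with the smallest p. Neighbours, Apoo, Mtx3, Chchd10, Micos10, Micos13, Dnajc11, Letm1, Parl, Stoml2 and Opa3 were added after their values were seen. The cell type markers named are the 6 of hepatocytes and the called Timd4. The plan used marker levels to check the tissue label only, and the fold changes of the markers were not part of it. Exon lengths came from GENCODE M21, 7 list symbols were found under older names, and 1 listed gene was not analysed here. Call functions were tested on simulated data. No near-identical copy (at least 95% over 100 bases, BLAST 2.17.0) lay outside the loci themselves. Python 3.11.15, pandas 2.3.3, scipy 1.17.1 and Biopython 1.88 were used.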

Additional observations from a re-analysis of the deposited data

How the results depend on the processing

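No paired analysis was possible because the columns of the deposited table carry codes that match no label and no replicate numbers, and the planned tests by diet and DEN, with their alternatives and left-out replicates, were not run for the same reason. The count of 3 called members was 3 with a threshold of 0.10 or a centred statistic, beside 9.75% and 6.53% of all genes. It was 2 with a threshold of 0.01, with the adjustment over every gene of the table or with Benjamini-Yekutieli. Those settings called 3.01%, 2.52% and 2.39% of all genes in that order. With mean normalized counts of at least 100, where Chchd6 is not tested, 2 of 9 members passed beside 9.09% of all genes. The count was 1 with the statistic divided by its scaled median absolute deviation of 1.44. That division keeps 142 genes in all, or 0.87% of all genes tested. Chchd6 stayed called in 6 of 6 alternatives and Apool in 6 of 7. The 4 calls among 93 tested list genes became 7 with a threshold of 0.10, beside 9.75% of all genes. They became 2 with 0.01 or with Benjamini-Yekutieli and 1 with the divided statistic, beside 3.01%, 2.39% and 0.87% of all genes. With the adjustment over every gene of the table they were 3 of 94, beside 2.52%. They stayed 4 with the centred statistic, beside 6.53%, and with counts of at least 100, where 82 were tested, beside 9.09%. The median log2 fold change of 0.0016 became 0.19 as a mean and 0.11 as a mean weighted by precision, and -0.045 without the called genes. The other length per kilobase, chosen after seeing the data, moved 7 of 10 levels by over 1.5 times. Depth per library was not given here, so the authors' SE is the limit on every value.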
